A study of Mus musculus with 2 samples.

Results

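The Slit ligands Slit1, Slit2 and Slit3 and the Robo receptors Robo1, Robo2, Robo3 and Robo4 were followed through the cell types of mouse embryos at E11.5. These 7 genes were chosen by name, 7 of the 21937 gene features of the count matrices, and they were picked with their UMI counts (unique molecular identifiers, 1 per captured transcript) in founders and F1 embryos already known. The contrast of founders with F1 is therefore described for them and not tested. The study delivered an EGFP transgene, driven by the ubiquitous CAG promoter and linked to a DNA barcode, with the piggyBac transposon, to see how uniformly founders carry it. Every embryo used here carried that transgene, so there was no group without it, and the labels give no strain. Cells of 4 suspensions were tagged with multiplexing oligos, pooled and captured in 1 droplet run that reads the 3′ end of transcripts. F0_8 and F0_9 were each 1 founder embryo, in which a transgene can be mosaic. By the paper's methods, founder eggs were fertilized in vitro, electroporated with transposase mRNA, injected with donor DNA and moved to recipient females. Generation cannot be told apart from that handling. F1_1 was 1 embryo bred from a founder, while the artificial mosaic F1_mix combined cells of 2 F1 embryos in 1 tube and counts as 1 sample. None of the embryos gave a second suspension, so p-values and spreads measure only the difference between these suspensions, and embryo and preparation cannot be told apart.

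Slits are large secreted proteins of the extracellular matrix, and Robos are their receptors on the cell surface. At the ventral midline of the neural tube, floor plate cells release Slit, which repels axons that carry Robo1 and Robo2 and keeps axons that have crossed from crossing again. Robo3 is a divergent receptor that commissural axons use on their way to the midline, and Robo4 is a receptor of endothelial cells. Outside the nervous system the same ligands and receptors act in the kidney, heart, diaphragm, vessels and muscle precursors.

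In the RefSeq annotation of GRCm38.p6, the build the files use, Robo1 (chr16:72027518-73047491, forward strand, 1020 kb) and Robo2 (chr16:73891976-75447443, reverse strand, 1555.5 kb) lie 844 kb apart and point towards each other. Robo4 (chr9:37401902-37414023, forward strand, 12.1 kb) and Robo3 (chr9:37416045-37433436, reverse strand, 17.4 kb) form the same arrangement with 2.02 kb between them. Slit1 (chr19:41597824-41747275, 149.5 kb), Slit2 (chr5:47981291-48307735, 326.4 kb) and Slit3 (chr11:35121456-35708507, 587.1 kb) are on chromosomes of their own. Slit2 and Slit3 share a feature that the choice of genes did not use. Each contains, on its own strand, a hairpin that gives the same microRNA, mmu-miR-218-5p, at chr5:48223966-48223986 in Slit2 and chr11:35616840-35616860 in Slit3. The mature sequence is shown because it is the identical product of both ligand genes, with the seed (bases 2 to 8) in capitals. The assay captured polyadenylated RNA and did not measure it.

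mmu-miR-218-5p: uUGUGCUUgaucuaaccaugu

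The 250 bases before an annotated start are shown for a widely detected receptor with several starts, Robo2, and for the receptor restricted to neurons, Robo3. They come from RefSeq, are written 5′ to 3′ on the strand of the gene, and have CpG dinucleotides in capitals. Of the 3 annotated starts of Robo2, the one shown has the most CpGs. The window of Robo2 is chr16:74411826-74412075 and that of Robo3 is chr9:37433176-37433425, both on the reverse strand.

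Robo2: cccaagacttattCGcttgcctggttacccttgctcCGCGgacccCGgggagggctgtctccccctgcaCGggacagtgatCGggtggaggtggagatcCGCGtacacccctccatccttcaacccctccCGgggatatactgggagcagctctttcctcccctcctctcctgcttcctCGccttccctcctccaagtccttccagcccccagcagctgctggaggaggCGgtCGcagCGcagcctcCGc

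Robo3: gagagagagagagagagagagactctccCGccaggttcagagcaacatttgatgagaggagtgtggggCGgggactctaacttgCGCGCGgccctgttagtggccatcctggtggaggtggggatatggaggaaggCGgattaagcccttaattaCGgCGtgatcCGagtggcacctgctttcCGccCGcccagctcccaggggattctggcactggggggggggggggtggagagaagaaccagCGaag

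The Robo2 window held 14 CpGs and the Robo3 window 12, against a median of 6 over 32851 such windows. The other starts of Robo2 had 4 and 8 CpGs, Robo1 had 11, Slit2 25, Slit3 35 and Robo4 2. The palindromic E-box CAGCTG, which reads the same on both strands and is present in 13% of all windows, occurred in the Robo2 window shown and in that of Robo4. The palindromic homeodomain motif TAATTA, present in 4.84%, occurred in that of Robo3. These are matches of letters in a window and not measurements of binding.

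The files gave 5678 annotated cells of 16 cell types, with 1599 and 1318 in the founders F0_8 and F0_9 against 1310 and 1451 in F1_1 and F1_mix, and 0 barcodes occurred in more than 1 suspension. The median depth ran from 10880 to 13267 gene UMIs per cell between suspensions, lower in both founders. In 12 deep cell types the median lay between 10898.5 and 29076 gene UMIs with 0.297% to 2.76% mitochondrial UMIs. In the other 4, Endodermal Progenitor, Foregut, Hepatocyte and Midgut, it lay between 721.5 and 1674 with 23.04% to 55.9%, and these are called shallow. Their names went against their markers. The cells annotated Midgut had 29.98 UMIs per 10000 of 5 pan-neuronal genes against 0.30 of 4 gut genes, 3 of which were at 0, and those annotated Hepatocyte had 12.6 of 4 mesenchyme genes against 0.05 of 4 liver genes. The type named Neuroectoderm/Glia held 85.7 of the pan-neuronal genes against 0.35 of 4 glial genes, more than the 67.7 in CNS Neuron, and is read below as a cluster rich in neuronal transcripts. Cells named Chondrocyte had 5.205 of 3 cartilage genes, less than the 6.64 of Gut Mesenchyme/Amniotic Mesoderm, and 16.1 of the mesenchyme genes. The authors' names are kept as labels.

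Levels below are UMIs of a gene per 10000 gene UMIs, summed over the cells of a type in a suspension. Groups of 4 values name F0_8 first, then F0_9, then F1_1 and last F1_mix, and levels are compared between cell types of 1 gene, never between genes. The types are clusters of the same cells, so their differences are described with no test.

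Slit2, the ligand best known for midline repulsion, was highest among deep types in Ependymal Cell, at 10.5, 8.44, 9.75 and 10.9, a mean of 9.89 ± 1.08 (SD, n = 4). It was the highest deep type in each of the 4 suspensions, and founders and F1 overlapped there. Neuroectoderm/Glia came next with 4.25, 3.73, 5.05 and 5.94, then Gut Mesenchyme/Amniotic Mesoderm with 2.71, 2.72, 3.48 and 3.36 and CNS Neuron with 2.69, 3.16, 2.81 and 3.59. The last pair overlapped, so their order is not settled. The Ependymal Cell type also carried floor plate markers (Shh, Foxa2, Spon1 and Ntn1) at a summed 5.42, 5.44, 9.79 and 9.97, the most of any type, with 7.65 over all suspensions. Those markers were lower in both founders, whereas Slit2 overlapped. Of the 4 genes of the ependymal list, Ttr alone ran from 0.0205 to 31.5 between suspensions, while Foxj1, which drives motile cilia, ran from 0.307 to 0.591.

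Slit3 was highest among deep types in Gut Mesenchyme/Amniotic Mesoderm, at 5.15, 4.94, 4.33 and 4.64, in each of the 4 suspensions. Chondrocyte followed with 4.10, 4.39, 3.24 and 2.61 and Mesodermal Progenitor with 3.53, 3.92, 2.94 and 3.66, and these overlapped. The 4 mesodermal types, Myoblast/Cardiomyocyte included, held 73.8% of all Slit3 UMIs, a share that also depends on how many gene UMIs they held. CNS Neuron had 0.349, 0.617, 0.260 and 0.527, lower than the first 3 mesodermal types in every suspension. Outside the mesoderm, Ependymal Cell had 3.67, 2.03, 1.56 and 3.38 and Neuroectoderm/Glia 0.742, 1.24, 2.55 and 3.05, both of which overlapped with the 1.95, 1.97, 1.73 and 1.84 of Myoblast/Cardiomyocyte.

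Slit1, which the developing nervous system uses beside Slit2, was sparse, with 816 UMIs in all. Its highest deep types were Neuroectoderm/Glia with 0.355, 0.353, 0.303 and 0.379, Ependymal Cell with 0.367, 0.260, 0.284 and 0.472, and CNS Neuron with 0.256, 0.448, 0.260 and 0.137. The 3 overlapped, and the first was the highest deep type in only 1 of 4 suspensions. Chondrocyte, Epithelial Cell and Gut Mesenchyme/Amniotic Mesoderm had 4, 2 and 15 UMIs in all.

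Robo1, a main receptor of the repulsive signal, was highest among deep types in Neuroectoderm/Glia, at 15.0, 12.4, 11.6 and 12.4. CNS Neuron had 10.6, 9.80, 12.5 and 10.5, which overlapped with it, and Gut Mesenchyme/Amniotic Mesoderm followed with 8.89, 8.44, 7.97 and 8.59. Neuronal Progenitor had 1.70, 2.84, 2.30 and 2.77, lower than both neuronal clusters in every suspension.

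Robo2, which overlaps with Robo1 in function, had its highest deep level in Gut Mesenchyme/Amniotic Mesoderm, at 8.61, 10.5, 6.99 and 6.30. Neuroectoderm/Glia had 9.95, 7.79, 4.80 and 3.97 and exceeded it in F0_8 alone. The 4 mesodermal types held 62.8% of its UMIs and the 2 neuronal types, CNS Neuron and Neuroectoderm/Glia, 22.6%. For Robo1 these shares were 47.9% and 36.3%. They depend on how many gene UMIs each group of types held, so they do not compare levels.

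Robo3 was found mainly in the 2 neuronal types, which held 85.6% of its 2577 UMIs. Neuroectoderm/Glia had 1.44, 1.78, 2.02 and 2.39 and CNS Neuron 1.10, 1.89, 2.32 and 1.91, which overlapped. Neuronal Progenitor had 0.0574, 0.0446, 0.0483 and 0.0602, and Gut Mesenchyme/Amniotic Mesoderm 0.0213, 0.0399, 0.0358 and 0.0283. Both were lower than the neuronal types in every suspension.

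Robo4 gave 37 UMIs, 27 of them in Hematoendothelial Progenitor/Endothelium, where the level was 0.327, 0.244, 0.138 and 0.0301. That type was the highest in each suspension but had only 76 cells, and 18.4% of them had a Robo4 UMI. It also carried macrophage genes (C1qa, C1qb, Csf1r, Tyrobp and Fcer1g) at a summed 31.8, 42.6, 29.2 and 63.8 against endothelial genes (Pecam1, Cdh5, Kdr, Tek and Emcn) at 14.2, 5.34, 8.92 and 8.16. F1_mix, with the lowest Robo4, had the most macrophage transcripts, and the part of that mixture in the Robo4 level was not tested.

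**Figure D1:**
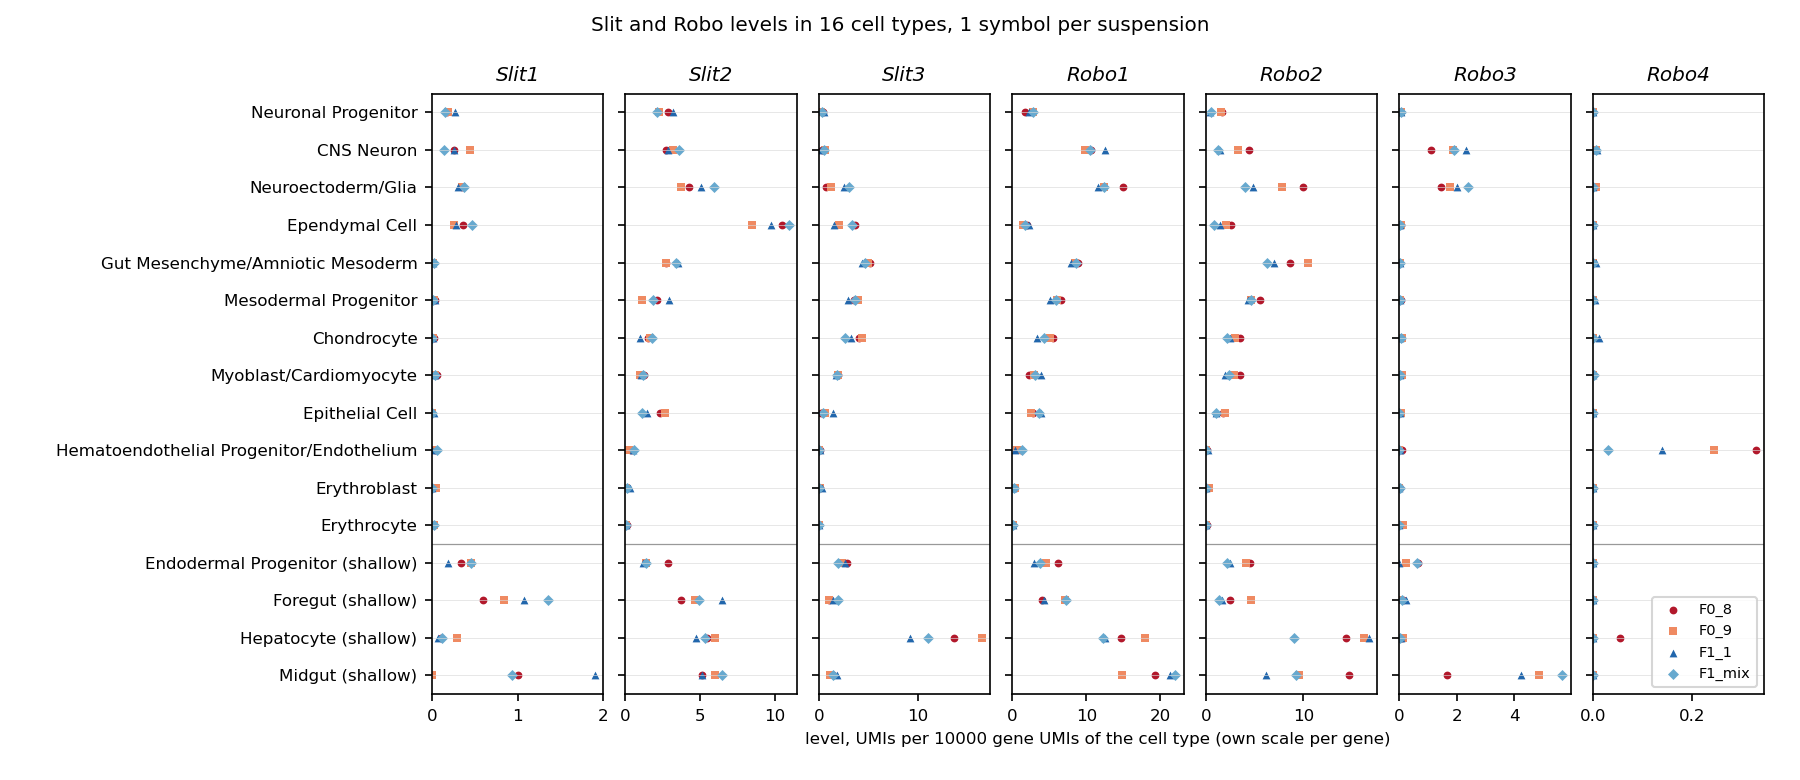
Level of each gene (horizontal axis, UMIs per 10000 gene UMIs, a scale of its own for each gene) in 16 cell types (vertical axis), with 1 symbol per suspension and the 4 shallow types under the line. Slit2 stands highest among deep types in Ependymal Cell (8.44 to 10.9), Robo3 in the 2 neuronal types, and Robo4 in Hematoendothelial Progenitor/Endothelium.

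The order of the 12 deep types was only partly resolved. Of the 11 neighbouring pairs in the order of means, the ranges over 4 suspensions overlapped in 10 pairs for Slit1, Robo3 and Robo4, 8 for Slit2, 10 for Slit3, 7 for Robo1 and 9 for Robo2.

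The shallow types held 12.9% of the Slit1, 6.40% of the Slit2, 10.7% of the Slit3, 7.03% of the Robo1, 8.50% of the Robo2, 7.26% of the Robo3 and 5.41% of the Robo4 UMIs. Cells annotated Hepatocyte had Slit3 at 13.7, 16.5, 9.19 and 11.1, beside their mesenchyme markers. Robo2 stood at 14.3, 16.2, 16.7 and 9.01 there and Robo1 at 14.7, 17.9, 12.6 and 12.2. Slit3 and Robo2 were above every deep type in each suspension. Cells annotated Midgut had Robo1 at 19.3, 14.8, 21.3 and 22 and Robo3 at 1.65, 4.87, 4.23 and 5.68, beside their pan-neuronal markers. Both were above every deep type in each suspension. Foregut had Slit1 at 0.593, 0.842, 1.08 and 1.36 from 35 UMIs, also above every deep type in each suspension. Slit3, Robo1 and Robo2 are among the longest genes, and whether length or the high mitochondrial share entered these levels was not tested.

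Free RNA, read from droplets with 1 to 100 gene UMIs that belong to no cell, carried 0.191 of Slit1, 1.91 of Slit2, 1.58 of Slit3, 4.85 of Robo1, 2.95 of Robo2, 1.37 of Robo3 and 0.0134 of Robo4 per 10000. Red blood cells (Erythroblast and Erythrocyte), which should lack these genes, had 0.0170, 0.0935, 0.0799, 0.197, 0.136, 0.0170 and 0 in the same order of genes.

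The share of cells with at least 1 UMI was compared after thinning each cell to 2000 gene UMIs, which left out 1077 shallower cells (347, 210, 281 and 239 by suspension). Intervals are exact 95% binomial and cover counting error only. Robo1 was found in 66.7% (62.5 to 70.7) of CNS Neuron, 65.9% (61.6 to 70.1) of Neuroectoderm/Glia and 66.4% (62.7 to 70.0) of Gut Mesenchyme/Amniotic Mesoderm cells. Its share in red blood cells was 2.46% (0.804 to 5.65), at a median depth before thinning of 27550 gene UMIs against 10911 in CNS Neuron. The 3 shares of Robo1 overlapped although its level was lower in the mesenchyme. Robo2 was found in 19.8% (16.5 to 23.4) of CNS Neuron, 42.4% (38.1 to 46.9) of Neuroectoderm/Glia and 55.3% (51.4 to 59.1) of Gut Mesenchyme/Amniotic Mesoderm cells, with 2.46% in red blood cells. Robo3 was found in 19.0% (15.8 to 22.6), 19.7% (16.3 to 23.5) and 0.594% (0.162 to 1.51) of the same types, with 0.493% (0.0125 to 2.71) in red blood cells, so its share in the mesenchyme is read as background. Slit2 reached 56.2% (47.5 to 64.7) of Ependymal Cell cells, with 0.98% in red blood cells.

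Without thinning, the shares in CNS Neuron were 88.7% for Robo1, 36.3% for Robo2 and 31.0% for Robo3, and those in red blood cells 24.5%, 13.2% and 3.43%. Few cells carried most of the Robo2 transcripts of CNS Neuron. The 10% of cells with the most held 70.4%, 83.1%, 82.6% and 81.1% of them, and a single F0_8 cell had 85 UMIs. In Gut Mesenchyme/Amniotic Mesoderm the top 10% held 41.0% to 50.4%.

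Within CNS Neuron, cells were divided by whether they had a UMI of any of the 4 genes of a neuron panel, again at 2000 UMIs. Robo3 was found in 38.0% (31.0 to 45.5) of 184 cells with the V1 and dI4 panel. Of 347 cells without it, 8.93% (6.15 to 12.4) had Robo3. That panel (Pax2, Lhx1, Gad2 and Slc32a1) holds genes that inhibitory interneurons use, read together and not gene by gene. Robo3 was higher in cells with that panel in 4 of 4 suspensions, with 30.2%, 35.5%, 51.4% and 38.6% against 9.64%, 7.95%, 10.7% and 7.92%. It was found in 0 of 66 cells with the motor panel (Mnx1, Isl1, Slc18a3 and Slc5a7) and in 21.7% (18.1 to 25.7) of 465 cells without it. At this depth 3 counts would be a share of 4.55% of cells with a UMI, and the exact upper limit was 5.44%. Without thinning Robo3 was found in 9 of 99 (9.09%) and in 36.0% of 433. Cells with the commissural dI1 panel (Lhx2, Lhx9, Barhl1 and Barhl2) had it in 10.5% (5.56 to 17.7), fewer than the 21.3% (17.5 to 25.6) of cells without it, and in 4 of 4 suspensions, although the intervals overlapped. That difference of -10.8 percentage points was -6.18 without thinning. In Neuroectoderm/Glia, added after the levels were seen, that last order turned over all cells but in only 2 of 4 suspensions, with 22.95% (15.8 to 31.4) of cells with the dI1 panel and 18.7% (14.9 to 22.97) of cells without. The V1 and dI4 panel did not divide Robo3 in that cluster either, with 21.2% (16.4 to 26.7) against 18.1% (13.5 to 23.5). There, too, few cells with the motor panel (2.22% of 45) had Robo3.

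In CNS Neuron Robo2 was found in 28.8% (18.3 to 41.3) of cells with the motor panel against 18.5% (15.1 to 22.3) without, and in 28.9% (20.8 to 38.2) of cells with the dI1 panel against 17.3% (13.8 to 21.2). Both were higher with the panel in 4 of 4 suspensions, although the intervals overlapped. With the V1 and dI4 panel it was found in 14.7% (9.90 to 20.6) against 22.5% (18.2 to 27.2) without, and F1_1 went the other way (22.9% against 12%). In Neuroectoderm/Glia Robo2 was hardly divided, with 43.4% against 42.1% for the dI1 panel and 43.6% against 41.2% for the V1 and dI4 panel.

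**Figure D2:**
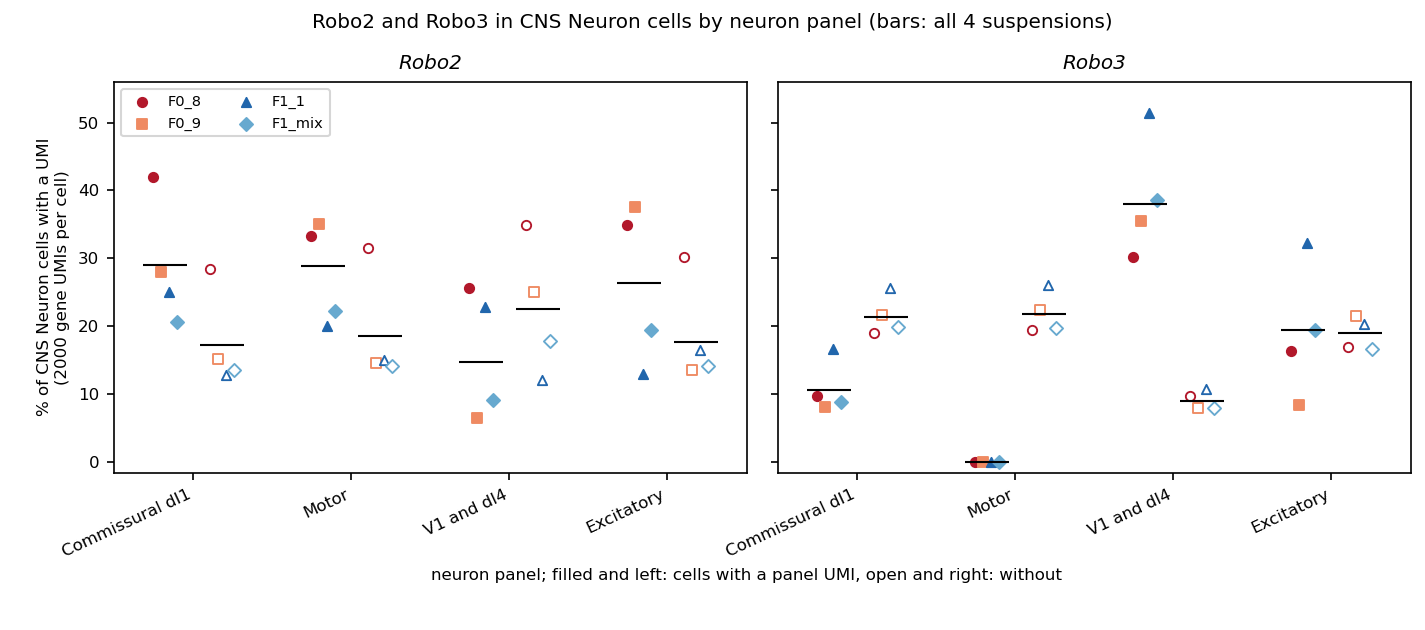
Percentage of CNS Neuron cells with a Robo2 (left) or Robo3 (right) UMI at 2000 gene UMIs per cell (vertical axis) among cells with (filled) and without (open) a UMI of each of 4 neuron panels (horizontal axis), by suspension, with bars over all 4 suspensions. Robo3 sits at 0 in all 4 suspensions in motor panel cells and at 30.2% to 51.4% in V1 and dI4 panel cells.

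The same cells seldom carried both Robo2 and Robo3. In CNS Neuron 10 of 531 cells had both, where the product of the 2 shares gives 19.97 cells, and the ratio was 0.60, 0.20, 0.75 and 0.53 in the 4 suspensions. In Neuroectoderm/Glia 15 of 502 had both against 42.0, with ratios of 0.57, 0.16, 0.30 and 0.32. The ratio was under 1 in 4 of 4 suspensions in both types. For Robo1 with Robo2 it was 0.99 in CNS Neuron and 1.03 in Neuroectoderm/Glia, and for Robo1 with Robo3 1.2 and 0.996. Slit2 with Slit3 in Neuroectoderm/Glia had 1.67, with 1.76, 1.31, 1.56 and 1.86 by suspension. These ratios describe cells of 4 samples and carry no test.

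Founders and F1 were then set side by side in the 13 types that had at least 20 cells per suspension. Of 67 pairs of gene and type with 20 or more UMIs, both founders lay above both F1 suspensions in 25 and below them in 12. Over all genes the founders were higher without overlap in 20.1% of 115888 pairs and lower in 19.6%, which makes 39.7%. The counts for the 7 genes use the values that chose them, and nothing is read from their excess. By gene the groups did not overlap in 2 of 8 pairs for Slit1, 6 of 13 for Slit2, 7 of 13 for Slit3, 8 of 13 for Robo1, 11 of 13 for Robo2 and 3 of 7 for Robo3. Robo4 had too few UMIs for any pair. Just inside the limit of 20 UMIs stood Slit1 in Mesodermal Progenitor with 25, and just outside it Robo3 in Chondrocyte with 17.

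**Figure D3:**
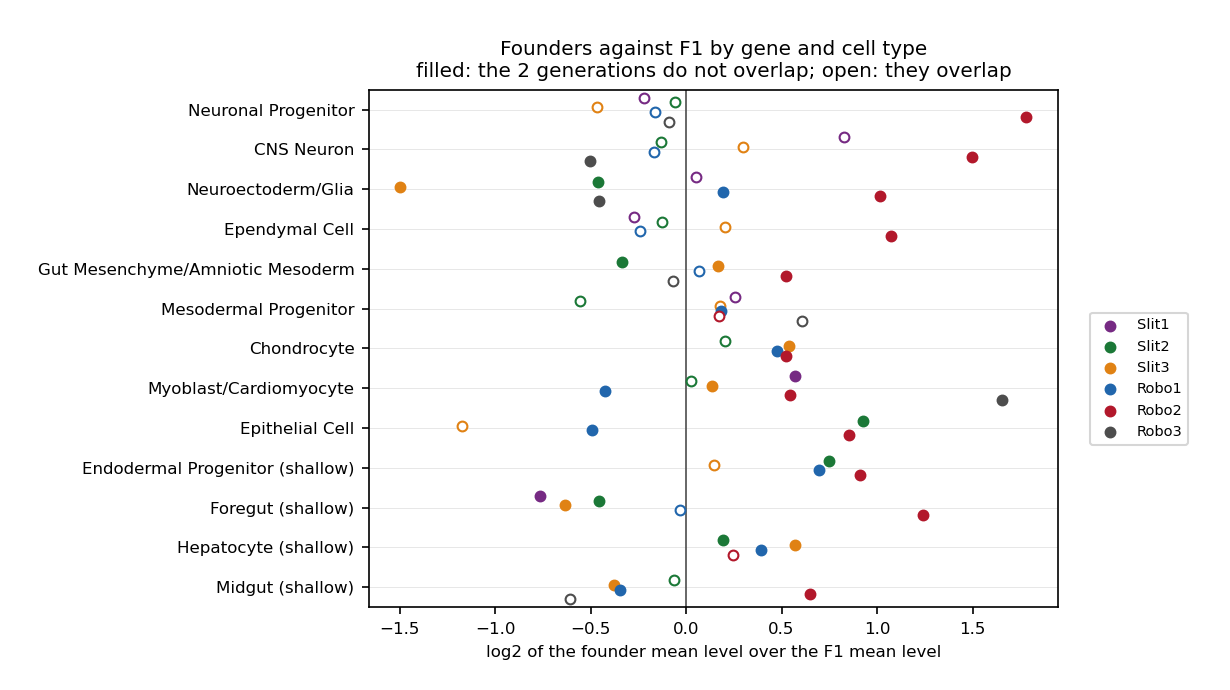
Log2 of the mean founder level over the mean F1 level (horizontal axis) for 6 genes in 13 cell types (vertical axis), filled where both founders lie on one side of both F1 suspensions and open where the generations overlap. Slit1 in Midgut is not drawn because F0_9 had 0 UMIs there. All Robo2 points lie to the right of 0 and reach 1.78 in Neuronal Progenitor, while Slit3 reaches -1.50 in Neuroectoderm/Glia.

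Robo2 was the gene with one direction throughout, although the types come from the same 4 suspensions and do not repeat the comparison. Its level was higher in both founders in 11 of 13 types, and the exceptions were Mesodermal Progenitor and cells annotated Hepatocyte. In CNS Neuron it was 4.40 and 3.32 in the founders against 1.49 and 1.24 in F1_1 and F1_mix, a log2 ratio of 1.50. The share of those cells with a Robo2 UMI was 46.8%, 33.8%, 33.6% and 31.7%, or 31.7%, 17.3%, 15.5% and 15.2% at 2000 UMIs, so that F0_8 alone stood well above the others by this measure. In Neuroectoderm/Glia the ratio was 1.02. In Neuronal Progenitor the level was 1.69 and 1.54 against 0.396 and 0.546, a log2 ratio of 1.78. The summed dI1 panel genes moved with it there, at 3.80 and 2.38 against 1.09 and 1.15, and their part in the difference was not tested. In the mesodermal types without overlap it was 0.52 in Gut Mesenchyme/Amniotic Mesoderm, 0.52 in Chondrocyte and 0.54 in Myoblast/Cardiomyocyte. Many marker lists moved in these types, with no overlap for 13 of 20 in Gut Mesenchyme/Amniotic Mesoderm, 9 in Chondrocyte and 9 in Myoblast/Cardiomyocyte. The cartilage genes were at 7.86 and 7.58 against 5.07 and 4.78 in Gut Mesenchyme/Amniotic Mesoderm and at 6.73 and 6.16 against 2.996 and 4.52 in Chondrocyte. Of 4 muscle genes, Myoblast/Cardiomyocyte had 15.0 and 3.83 against 1.78 and 2.24. Its 4 mesenchyme genes went the other way, at 5.88 and 9.09 against 9.40 and 10.3. Their part was not tested. Epithelial Cell had 0.85, Ependymal Cell 1.07 and, among shallow types, Endodermal Progenitor 0.91, Midgut 0.65 and Foregut 1.24. After thinning, Epithelial Cell and Ependymal Cell overlapped.

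The make-up of the neuronal types also differed, and Robo2 was therefore read within panels. In CNS Neuron, 24.6% and 17.9% of founder cells had a motor panel UMI against 17.3% and 15.2% of F1 cells. The log2 ratio was 1.15 in cells with a motor UMI and 1.60 in cells without, and 1.65 and 1.48 for the dI1 panel. For the V1 and dI4 panel it was 0.42 in cells with a UMI (2.15, 1.63, 2.05 and 0.773, which overlapped) and 2.06 in cells without (5.80, 4.96, 1.01 and 1.56, which did not). In Neuroectoderm/Glia it ran from 0.54 to 1.23 over the same divisions. Thinning to 2000 UMIs lowered the ratio in CNS Neuron to 0.88 and left 1.09 in Neuroectoderm/Glia and 1.42 in Neuronal Progenitor. The part of depth and of these panels in the difference was not tested further.

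Slit3 went the other way in 1 neuronal cluster. In Neuroectoderm/Glia its level was 0.742 and 1.24 in the founders against 2.55 and 3.05 in F1, a log2 ratio of -1.50 with no overlap. Slit2 in the same cells was 4.25 and 3.73 against 5.05 and 5.94, a log2 ratio of -0.46. Motor panel genes moved with both, at a summed level of 0.645 and 0.590 against 2.15 and 2.12, in 9.76% and 11.9% of cells against 16.5% and 19.4%. Of 20 marker lists, 10 did not overlap in this type, and the part of any of them in Slit2 or Slit3 was not tested.

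In the cells of that cluster without a motor panel UMI, Slit3 stood at 0.783, 0.457, 0.432 and 0.614, so that the generations overlapped and the log2 ratio was 0.25. In those with one it stood at 0.343, 5.66, 9.72 and 11.9, from 16, 18, 13 and 21 cells. These few cells held 4.35% and 68.8% of the cluster's Slit3 UMIs in the founders against 87.0% and 84.2% in F1. Slit2 was 4.40, 2.74, 3.13 and 2.51 without a motor UMI, which overlapped, and 2.80, 9.30, 11.53 and 18.4 with one. A single cell of F0_9 held 86 of the 148 Slit3 UMIs of its motor panel cells, so its level rests largely on that cell. In F0_8 none of the motor panel cells had more than 3. The median depth of cells with a motor UMI was 9995, 13684.5, 18102 and 11892 gene UMIs, against 10836, 11021, 11730.5 and 11711 in cells without. The part of depth in this division was not tested. The division was made after the levels were seen.

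**Figure D4:**
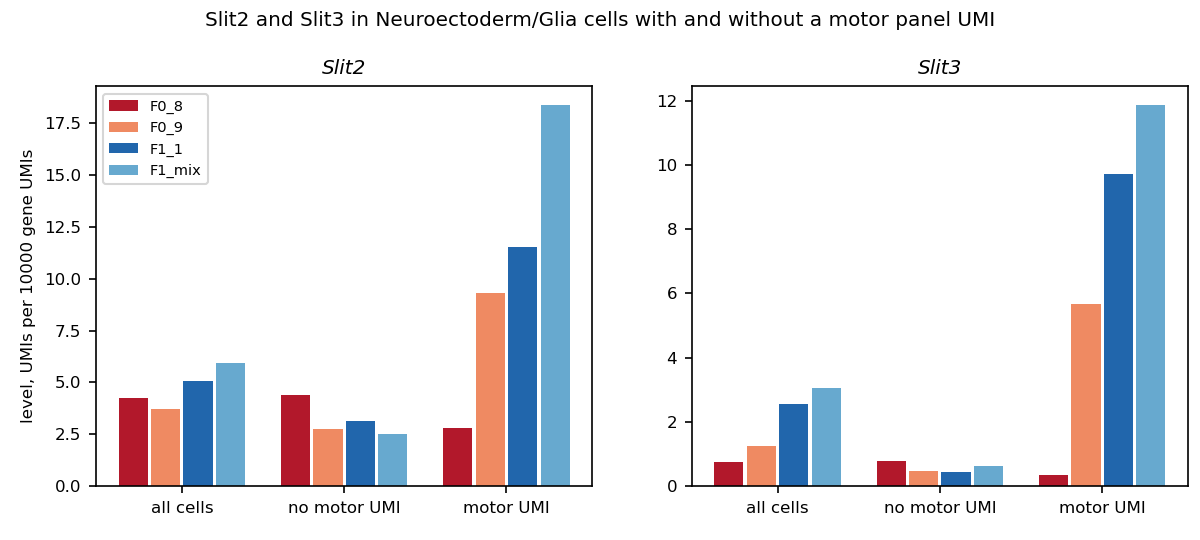
Level of Slit2 (left) and Slit3 (right) in Neuroectoderm/Glia (vertical axis, UMIs per 10000 gene UMIs) for all cells, cells without and cells with a motor panel UMI (horizontal axis), with 1 bar per suspension and no replicate of a suspension. Without a motor UMI the 4 Slit3 bars lie between 0.432 and 0.783, and with one F0_8 stays at 0.343 while the others reach 5.66 to 11.9, where 1 cell gives 86 of the 148 UMIs behind the 5.66 of F0_9.

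The other genes had no common direction. Robo1 was higher in founders in 5 types and lower in 3, and its log2 ratio in Neuroectoderm/Glia was 0.19 and in Epithelial Cell -0.49. Both overlapped after thinning to 2000 UMIs, and in Neuroectoderm/Glia F0_9 and F1_mix were all but equal. Robo3 was lower in founders in both neuronal types, with log2 ratios of -0.50 in CNS Neuron and -0.45 in Neuroectoderm/Glia, opposite to Robo2 in the same cells. In CNS Neuron this rested on F0_8, since F0_9 (1.89) lay close to F1_mix (1.91), and as means over cells (1.12, 2, 2.13 and 1.85) the generations overlapped. The pan-neuronal genes were also lower in both founders of both types. They stood at 67.04 and 62.75 against 69.58 and 71.63 in CNS Neuron. In Neuroectoderm/Glia they stood at 79.69 and 83.73 against 91.68 and 92.15. Their part in the Robo3 difference was not tested. Slit2 was higher in founders in Epithelial Cell, at 2.29 and 2.64 against 1.45 and 1.14. In that type 10 of 20 marker lists did not overlap either, among them the cartilage genes (1.89 and 2.29 against 3.74 and 3.08) and the V1 and dI4 genes (0.141 and 0.244 against 0.521 and 0.609), and their part in Slit2 and Robo2 there was not tested. Slit2 was lower in Gut Mesenchyme/Amniotic Mesoderm, where it overlapped after thinning. Before thinning, Slit1 did not overlap in Myoblast/Cardiomyocyte (0.0614 and 0.0330 against 0.0316 and 0.0320) and in Foregut alone, from 45 and 35 UMIs. In the first, F0_9 and both F1 suspensions lay close to the upper red blood cell limit of 0.0313, and F0_8 alone stood apart, from 11 UMIs. Robo4 in Hematoendothelial Progenitor/Endothelium, outside the 13 types, was higher in both founders.

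A list of 51 partners of the pathway, also chosen with earlier results of these data known, was tested in the edgeR quasi-likelihood fit, with p-values adjusted by Benjamini-Hochberg over all genes of a type. Of 559 pairs of partner and type, 1 passed, where 0.752% of 99241 pairs over all genes did. An unadjusted p under 0.05 was found for 63 of them (11.3%), close to the 10.2% over all genes. Their median log2 fold change was 0.02, against -0.00076 over all 99241 pairs. The call was Unc5c in CNS Neuron, a netrin receptor of the same guidance system, with levels of 1.49, 1.186, 0.527 and 0.721. The motor panel genes were also higher in the founders of that type, at 3.39, 2.66, 1.64 and 2.59, and their part was not tested. Both founders lay above both F1 suspensions, and the log2 fold change was 1.06 ± 0.17 (SE, 2 against 2 suspensions), with an edgeR adjusted p of 0.0206. Without F0_8 it was 0.89 with an adjusted p of 0.418, and over the other alternatives the adjusted p ran from 1.05e-09 to 0.0220. By group, 1 of 103 pairs passed among the 10 other ligands and receptors, which include Ntn1, Dcc and Nell2, the ligand of Robo3. Of the 12 heparan sulfate and matrix genes, such as Gpc1, Sdc1 and Ext1, which help Slit bind Robo, 0 of 120 pairs passed. Of the 6 trafficking and cleavage genes, such as Ndfip1 and Adam10, 0 of 69 passed, and of the 23 cytoplasmic partners, such as Srgap1 and Abl1, 0 of 267. DESeq2 called 2 pairs, Unc5c and, lower in founders, Dcc in the cells annotated Midgut (log2 fold change -0.93), where edgeR gave an adjusted p of 0.0544. That pair also passed in edgeR with RLE (adjusted p = 0.0433), with no filter (adjusted p = 0.0341) and without F1_1 or F1_mix (adjusted p = 3.15e-08 and 0.00450). In Midgut the pan-neuronal genes were also lower in founders (24.1 and 25.4 against 29.7 and 36.9) and the median mitochondrial share higher (31.3% and 29.1% against 27.5% and 20.7%), and their part was not tested. In other types Dcc, the attractive netrin receptor, was called in either direction under some alternatives, with log2 fold changes from -1.22 to 1.30.

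The genes most like each member were ranked by Pearson r of log2(level + 0.1) over 41 pairs of deep type and suspension, among 11954 genes. The 4 suspensions of a type share its cells' identity, so the points are not independent and r is a description. For Robo3 they were Scrt1 (0.989), Lhx1 (0.982) and Cntn2 (0.981), the closest matches of any member, and Lhx1 is also in the V1 and dI4 panel. Robo1 was followed by Asxl3, Rbfox2 and Apbb2 (0.951 to 0.962), Robo2 by Mpped2, Chd3 and Dzip1 (0.913 to 0.917), Slit1 by Pnmal1, Pcsk1n and Lrrc4b (0.910 to 0.914), Slit2 by Cfap36, Dst and Oscp1 (0.906 to 0.936) and Slit3 by Rbms3, Vcan and Smarca1 (0.882 to 0.896). Among the members themselves the closest pair was Robo1 with Robo2 (r = 0.85), then Slit3 with Robo2 (0.77). Slit3 with Robo3 had -0.08, and Robo4 was negative with all others.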

How the data were processed

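The deposited matrices hold UMI counts per gene and barcode, 1 matrix for each of 4 suspensions, which the authors made with Cell Ranger, release 7.2.0 in the file headers and an earlier one in the methods text, against GRCm38 with the EGFP sequence added. For intronic reads, the counting setting was not given in the sources used here. The authors removed ambient RNA with SoupX, doublets with DoubletFinder and noise with RECODE in their own analysis with Seurat. The deposited counts were used here as they are, and no doublet caller was run. The suspension and cell type of each cell came from 2 text columns of the authors' cell table, and cells absent from it were left out. The oligo library served only the assignment of cells.

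The 7 members and all lists were chosen with earlier results of these data known. Levels are UMIs per 10000 gene UMIs, summed over the cells of a type. Types were compared between generations with 20 or more cells in each suspension, and pairs with 20 or more UMIs. For thinning, 2000 gene UMIs were drawn from each cell with no UMI drawn again, and cells with fewer were dropped. Limits for a count of 0 stand for 3 counts. Counts summed per suspension were tested with edgeR 4.0.16 (TMM, filterByExpr, quasi-likelihood test, F0_8 and F0_9 against F1_1 and F1_mix), with DESeq2 1.42.0, RLE, no filter, cells under 5% mitochondrial UMIs and each suspension left out as alternatives. The script was tested on simulated data. Levels were also taken without mitochondrial genes and as means over cells. Named were all members, each partner that passed the test, and for members with 200 or more UMIs the 3 genes of highest r, with pseudocount 0.1. Dcc, the V1 and dI4 division and the motor division were named after their values were seen. Promoter and microRNA sequences came from RefSeq tables of GRCm38.p6, with entries for 6 members. Python 3.11.15, numpy 2.4.6, pandas 2.3.3, scipy 1.17.1, matplotlib 3.10.9 and R 4.3.3 were used. Results for 2 further neuron panels are not reported here.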

Additional observations from a re-analysis of the deposited data

Results flagged for a closer look

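For 5 of the genes, some cell types had both founders above both F1 suspensions and others had both below. The extremes of each gene are given as log2 of the founder mean over the F1 mean, and the difference between the types was not tested. Slit1 had 0.57 in Myoblast/Cardiomyocyte, where F0_8 alone stood apart from the upper red blood cell limit, and -0.76 in Foregut, where floor plate markers ran at 2.61, 3.79, 4.81 and 7.72 and the median mitochondrial share at 27.2%, 27.7%, 19.5% and 22.5%, and their part was not tested. Slit2 had 0.93 in Epithelial Cell and -0.46 in Neuroectoderm/Glia. Slit3 had 0.57 in the cells annotated Hepatocyte and -1.50 in Neuroectoderm/Glia. In the first, 10 of 20 marker lists did not overlap, 3 higher in founders and 7 lower. The mesenchyme genes were lower there, at 12.1 and 8.63 against 13.1 and 15.2, and the part of these lists was not tested. Robo1 had 0.70 in Endodermal Progenitor and -0.49 in Epithelial Cell. Robo3 had 1.65 in Myoblast/Cardiomyocyte, from 38 UMIs at 0.0223, 0.0896, 0.0219 and 0.0137, where only F0_9 stood apart and the others lay within the red blood cell range of 0.00815 to 0.0313, and -0.50 in CNS Neuron. The pan-neuronal genes of Myoblast/Cardiomyocyte were at 1.01, 2.05, 0.958 and 0.818, highest in F0_9 too. In CNS Neuron the pan-neuronal genes were lower in both founders, as Robo3 was, and their part was not tested. Robo2 had no type with founders lower. After thinning to 2000 UMIs the generations overlapped for Slit3 in the cells annotated Hepatocyte and for Robo1 in Epithelial Cell.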

How the results depend on the processing

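The alternatives by neuron panel were chosen after seeing the data. The mean Slit2 level of Ependymal Cell was 11.2 as a mean over cells, against 9.89. The number of gene and type pairs without overlap fell from 37 of 67 to 23 of 48 in cells under 5% mitochondrial UMIs (40.1% of pairs over all genes) and to 20 of 44 after thinning to 2000 UMIs (36.8%), where fewer types entered. Thinning to 2000 UMIs also parted generations that had overlapped. Founders became higher for Slit1 and Slit3 in CNS Neuron and for Robo1 in Gut Mesenchyme/Amniotic Mesoderm. They became lower for Slit1 and Slit3 in Neuronal Progenitor and for Slit2 in Myoblast/Cardiomyocyte. The share of CNS Neuron cells with a UMI was 51.1% for Robo1, 10.7% for Robo2 and 12.8% for Robo3 at 1000 UMIs and 88.7%, 36.3% and 31.0% without thinning. In Neuroectoderm/Glia the Slit2 log2 ratio of -0.46 turned to 0.34 without motor panel cells, 0.30 in cells with the dI1 panel and 0.078 in cells with the V1 and dI4 panel, and the Slit3 ratio of -1.50 turned to 0.25 without motor panel cells and moved to -0.076 in cells with the dI1 panel. Partner calls went from 1 of 559 pairs to 2 with DESeq2, 2 with RLE and 16 of 661 with no filter, and to between 2 of 580 and 9 of 569 with a suspension left out. Calls over all genes went from 746 of 99241 to 429 with DESeq2 and 3154 of 189216 with no filter, and to between 511 of 106291 and 1585 of 107253 with a suspension left out. Of the 18 genes most like the members, 9 and 10 were kept with pseudocounts of 0.01 and 1, and 6 without F0_9. The cause of these changes was not tested. A lone suspension of a generation was assumed there to vary like the other generation's.

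With 2 suspensions a generation, embryo, preparation and generation cannot be told apart. Depth limits Slit1, Robo3 and Robo4 outside the types named, and the 4 shallow types throughout. Intervals cover counting error only.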
